A study of Bos taurus with 16 samples.

Results

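Aminoacyl-tRNA synthetases were examined in RNA-Seq counts of bovine preimplantation embryos whose mothers received a control or a methionine-rich diet. The members were chosen by gene name, with earlier results of these data known. A locus was taken if its gene name was a letter followed by ARS, with or without a final 2, or was EPRS, FARSA or FARSB. This gave 33 of the 22358 loci, of which 19 encode cytosolic enzymes and 14, with names ending in 2, mitochondrial enzymes. EPRS, EARS2, IARS2 and VARS2 were not analysed here.

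The study asked whether more methionine in the diet of the mother changes the transcriptome of her embryos. The embryos were expanded blastocysts of Holstein dairy cows, and each library holds embryos of 1 mother, with 2 such libraries, called pools, per cow. The pools compared held 1 or 2 blastocysts in the control and 1 to 4 in the methionine-rich treatment, so that C4.1, C4.2 and M8.2, with 1 each, are single embryos and pool size differs between the diets. Control cows 1 to 4 gave 8 pools (C1.1 to C4.2) and methionine-rich cows 5 to 8 gave 8 pools (M5.1 to M8.2). Both diets had the same base and were fed from calving until the embryos were collected, and rumen-protected methionine was added in the methionine-rich treatment only. All 8 cows were superovulated and inseminated with semen of a pair of sires, and they were selected for the number and quality of their embryos. The labels call the tissue IVF embryos, whereas the methods describe embryos flushed from inseminated cows. The ages of the cows are not given in the labels.

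Aminoacyl-tRNA synthetases attach each amino acid to its own tRNA, the step that matches the genetic code to amino acids in protein synthesis. The cytosol and the mitochondrion translate separately, and for most amino acids the nucleus encodes a separate enzyme for each compartment. In the cytosol, several synthetases are bound together with the scaffold proteins AIMP1, AIMP2 and EEF1E1 in the multisynthetase complex. Cells short of an amino acid activate the transcription factor ATF4, which is known to raise the transcription of many cytosolic synthetase genes. Methionyl-tRNA synthetase, MARS in the cytosol and MARS2 in the mitochondrion, uses the amino acid that the diets differ in, and it also charges the initiator tRNA with which translation starts.

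Total counts of the 15 pools compared lay between 5624126 and 7826542, with a median of 6668507 for 7 control pools and 7298181.5 for 8 methionine-rich pools. The total of pool C3.2 was 1745048. The study did not analyse this pool, since unusually few of its uniquely mapped reads fell on annotated exons. It names an error in library preparation as a possible reason. Values of C3.2, and results with all 16 pools, therefore include a library that the study set aside. This pool was left out unless all 16 pools are named, and cow 3 is represented by pool C3.1 only. Of the 14 blastocyst markers examined, 13 passed the filter on low counts, and IFNT did not. Counts in each of the 15 pools were found for 9 of the 13, including KRT18, GATA2 and POU5F1. CDX2 had counts in 12 of the 15 pools, CDH1 in 13, IFNT2 in 14 and PAG2 in 10. Markers of leukocytes were concentrated in pool C2.1, where the 8 genes examined summed to 2364 CPM (read counts normalised to the total of their pool) against at most 29.7 in any of the other 14 pools. For the leukocyte gene LAPTM5, C2.1 had 6969 counts, the other control pools had from 3 to 7 each, and the 8 methionine-rich pools had 0. Markers of cumulus and granulosa cells summed to at most 57.0 CPM and those of oviduct and endometrium to at most 26.2 CPM. Each of these maxima rested mainly on 1 gene, CYP19A1 with 56.95 CPM in C4.2 and PGR with 24.93 CPM in M6.1. The markers FOXL2, INHA, PAEP and FOXJ1 had 0 counts in each of the 15 pools. The methods state that 8 libraries were sequenced in each of 2 lanes, but the labels do not say which, so that lane and diet cannot be told apart.

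All 33 synthetases had counts in at least 1 of the 15 pools. The 19 cytosolic synthetases each had at least 10 counts in every pool, whereas 8 of the 13 mitochondrial synthetases that passed the filter (15 pools summing to 15 CPM or more) did, against 47.2% of all 10519 loci that passed. The member that failed the filter was PARS2, the mitochondrial prolyl-tRNA synthetase, which had 27 counts in C1.2, 5 in C2.2, 6 in M5.2 and 0 in the other 12 pools. A count of 0 allows a level of up to between 0.383 and 0.533 CPM, depending on the pool. CPM values are not divided by transcript length, so they are compared between pools for the same gene and not between genes. Fewer cells of a type in a pool and less RNA per cell cannot be told apart in these values.

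**Figure D1:**
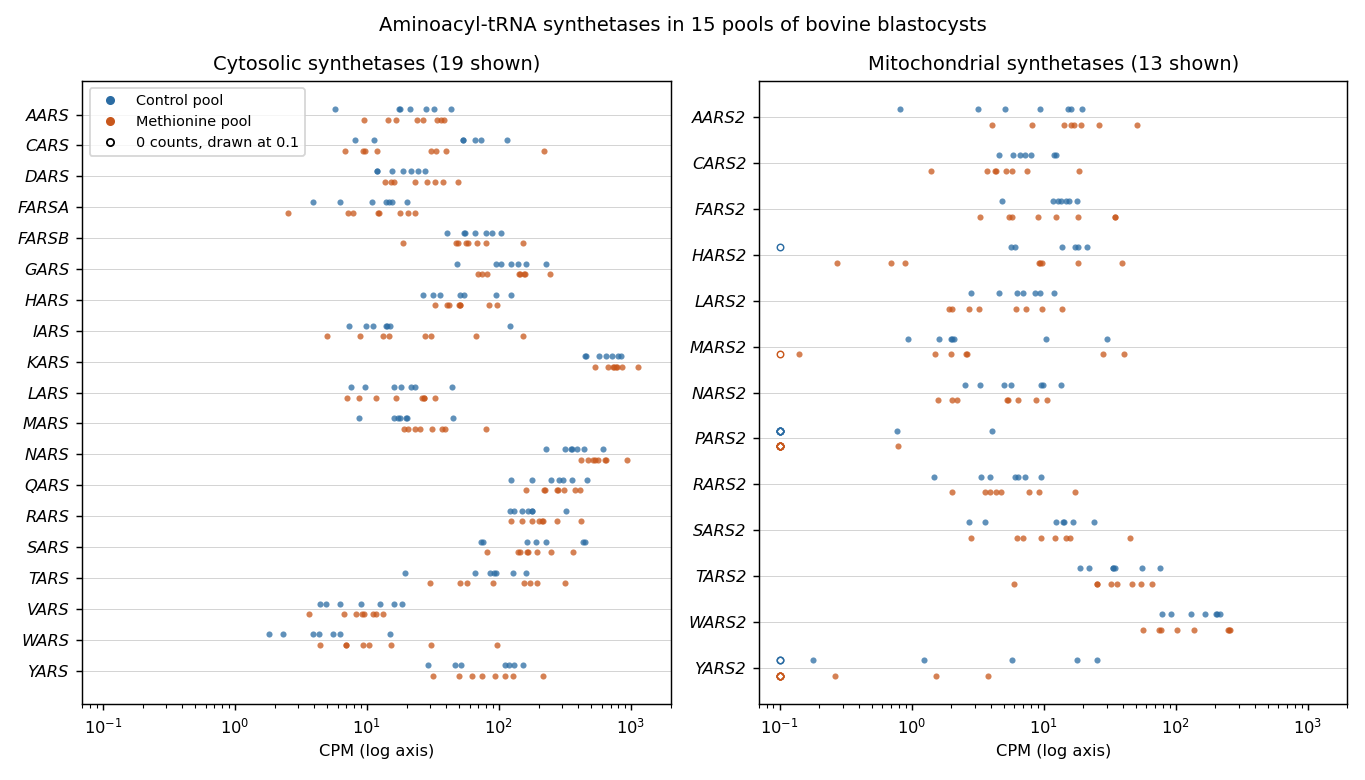
CPM (log axis) of 32 of the 33 aminoacyl-tRNA synthetases in 7 control pools (blue) and 8 methionine-rich pools (orange), 1 point per pool, with open circles at 0.1 for pools with 0 counts. The values of the diets overlap for each gene shown, and open circles occur only among mitochondrial synthetases.

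The level of a synthetase varied between pools. The coefficients of variation given here are over the pools of both diets, so they include any difference between the diets. Over the 15 pools, the coefficient of variation of CPM had a median of 49.3% for the cytosolic and 66.6% for the 13 tested mitochondrial synthetases, against 80.3% for all loci tested. It was lowest for KARS (24.2%), the lysyl-tRNA synthetase, and above 100% for CARS (113%), IARS (131%), WARS (162%), MARS2 (156%) and YARS2 (203%) among the members tested. Pools of the same cow differed too. Their median absolute difference on the log2(CPM + 1) scale was 0.24 for FARSB, the beta subunit of phenylalanyl-tRNA synthetase, and 2.15 for CARS, the cysteinyl-tRNA synthetase. For CARS, the pools of cow 5 had 218 and 39.7 CPM. For IARS, the isoleucyl-tRNA synthetase, the pools of cow 1 had 15.04 and 122 CPM and those of cow 6 had 152 and 27.8 CPM.

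None of the 32 synthetases tested differed between the treatments at an FDR under 0.10 in the exact test of edgeR, with which 1.05% of the 10519 loci were called, 0.276% higher and 0.77% lower in the methionine-rich treatment. The smallest FDR among the members was 0.224. The quasi-likelihood test of edgeR called 0 members, and 0% of all loci. At an unadjusted p under 0.05, the exact test gave 3 members (WARS, NARS and YARS2), where 8.54% of all loci passed, and the quasi-likelihood test gave 2 (WARS and NARS), where 8.64% of all loci passed. DESeq2 called 1 member, NARS, with an FDR of 0.0966, and 0.685% of the 10074 loci to which it gave an FDR. It took the pools of a cow as separate samples. With the pools of each cow summed, the FDR of NARS was 0.905 in the exact test and 0.758 in the quasi-likelihood test. Limma with voom, in which the cow was a random effect, called 0 members and 0% of the loci, and gave NARS as the member with an unadjusted p under 0.05.

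The direction of the differences was mixed. The log2 fold change (methionine-rich over control) was positive for 18 and negative for 14 of the 32 members, with a median of 0.03, and 46.5% of all loci tested were positive, with a median of -0.05. It was positive for 13 of 19 cytosolic synthetases (median 0.06) and for 5 of 13 mitochondrial synthetases (median -0.09). These counts were the same under the other scalings tried (RLE size factors and pool totals), but without pool C2.1 they were 9 of 19 and 6 of 13, and with all 16 pools 13 of 19 and 8 of 13. A fold change below 2 in either direction was estimated for 29 of the 32 members, against 75.3% of all loci. The 95% interval of DESeq2 lay wholly within a 2-fold change for 12 of the 19 cytosolic synthetases and for 2 of the 13 mitochondrial synthetases, TARS2 and WARS2, so that for most mitochondrial members a 2-fold difference was not excluded by these data. The standard error of the log2 fold change had a median of 0.38 for the cytosolic and 0.56 for the mitochondrial members.

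**Figure D2:**
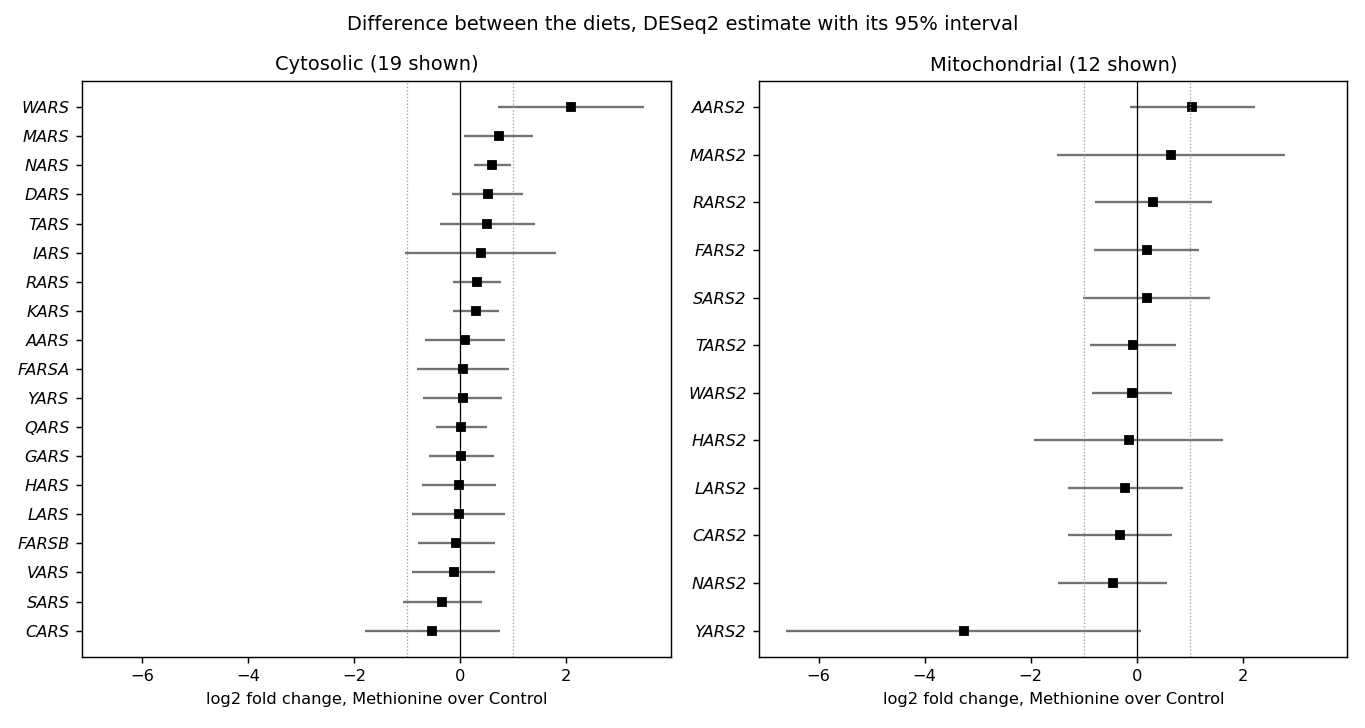
Log2 fold change (methionine-rich over control, DESeq2 estimate, squares) with its 95% interval (lines) for 19 cytosolic and 12 of the 13 tested mitochondrial synthetases, and dotted lines at a 2-fold change. The intervals of WARS, MARS and NARS do not include 0, before adjustment over all loci, and the intervals of YARS2, MARS2 and HARS2 are the widest of those drawn.

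MARS, the cytosolic methionyl-tRNA synthetase, ranged from 8.71 to 44.9 CPM in control pools (median 17.9) and from 19.0 to 79.9 CPM in methionine-rich pools (median 28.2). The highest control pool was C2.2 and the highest methionine-rich pool was M5.1, and 5 of the 7 control pools lay between 16.2 and 20.1 CPM. The cow means were 18.9, 26.8, 17.1 and 17.9 CPM in the control treatment and 55.6, 21.8, 22.1 and 38.0 CPM in the methionine-rich treatment, so that control cow 2 exceeded methionine-rich cows 6 and 7. Their averages were 20.2 ± 4.47 and 34.4 ± 16.1 CPM (SD, n = 4 cows each), a difference of 14.2 CPM (exact two-sided permutation test over cows, p = 0.171; the smallest p that 4 against 4 cows can give is 0.0286). The log2 fold change was 0.72 with an FDR of 0.784 in the exact test, and DESeq2 estimated 0.73 ± 0.33 (SE). Without M5.1, the ratio of the cow means went from 1.70 to 1.40. On the log2(CPM + 1) scale the cow means of the diets did not overlap (difference 0.71, exact permutation p = 0.0286). On that scale 2.29% of all loci tested were separated. With C3.2, which had 103 CPM, the difference was 3.50 CPM and the log2 fold change -0.25.

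In the RefSeq table of assembly ARS-UCD2.0, MARS overlaps DDIT3, a stress-response transcription factor gene. The labels and methods do not give the strand setting of the counting, so reads of the overlap cannot be assigned with certainty. DDIT3 had from 11 to 207 counts in control pools and from 22 to 542 in methionine-rich pools (log2 fold change 0.35, FDR = 1.0). Its highest pool was M6.1, where MARS had 23.3 CPM. Another protein-coding gene overlaps 10 of the 33 members there, the others being AARS, RARS, VARS, YARS, CARS2, MARS2, RARS2, TARS2 and YARS2, and their counts carry the same uncertainty.

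MARS2, the mitochondrial methionyl-tRNA synthetase, was high in the pools of 1 cow of each treatment. It had 10.4 and 30.3 CPM in the pools of control cow 4, and 40.4 and 28.3 CPM in those of methionine-rich cow 7. In the other 11 pools it ranged from 0 to 2.62 CPM, with 0 counts in M6.1 and 1 count in M8.1. The cow means were 2.04, 1.81, 0.943 and 20.4 CPM in the control and 2.30, 0.757, 34.3 and 1.35 CPM in the methionine-rich treatment. The averages of the diets, 6.29 ± 9.40 and 9.68 ± 16.4 CPM (SD, n = 4 cows each), thus rest on cows 4 and 7, and their difference was 3.39 CPM (exact permutation test, p = 0.771). Without the pools of cow 7 the difference was -4.82 CPM. DESeq2 estimated a log2 fold change of 0.65 ± 1.10 (SE), and its 95% interval ran from -1.51 to 2.80. With the number of blastocysts in a pool as a covariate, the quasi-likelihood estimate was 3.08 (FDR = 0.602) in place of 0.60, and both pools of cow 4 are single embryos. RFTN2, which overlaps MARS2 in the RefSeq table, had at most 2 counts in any of the 15 pools.

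**Figure D3:**
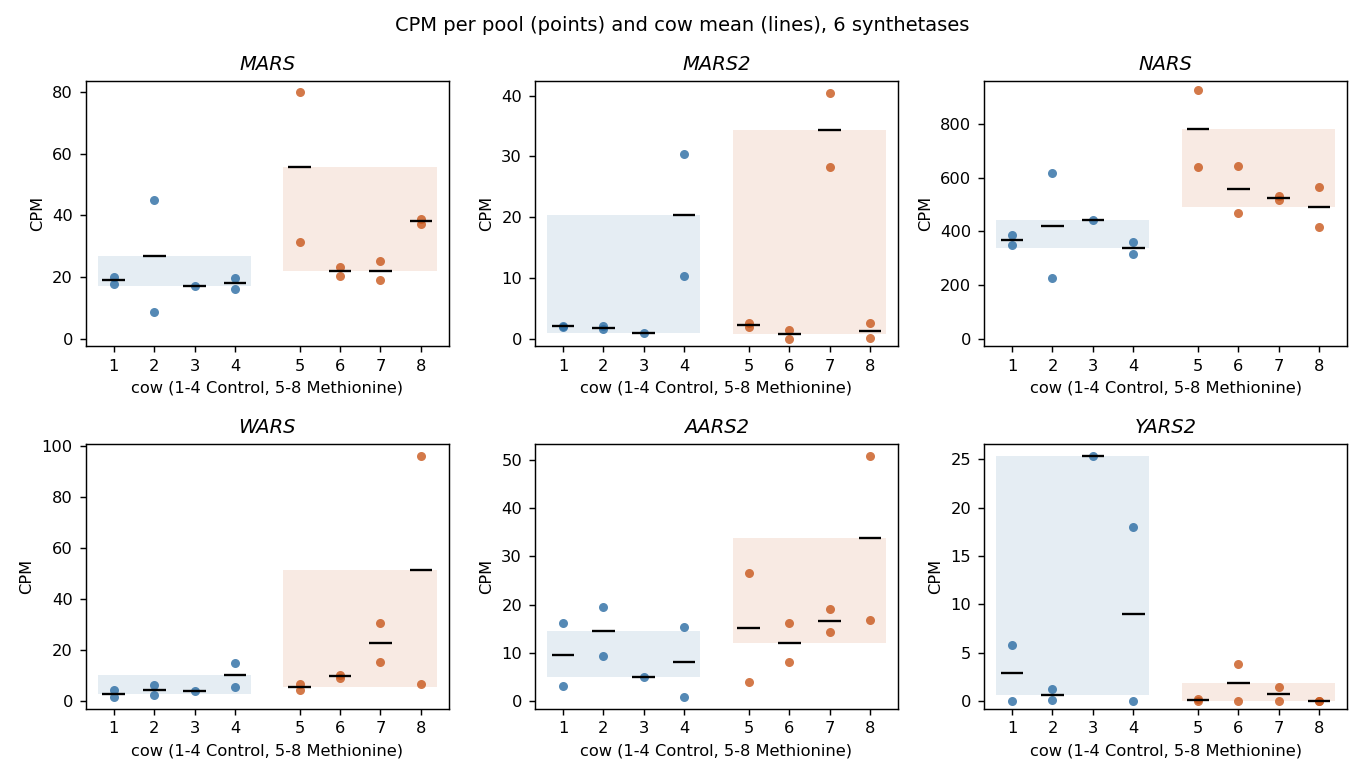
CPM per pool (points) and mean per cow (black lines) of 6 synthetases in control cows 1 to 4 (blue) and methionine-rich cows 5 to 8 (orange), and shading from the lowest to the highest cow mean of each diet. The shaded ranges do not overlap for NARS, overlap for the other genes, and are set by cows 4 and 7 for MARS2.

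NARS, the asparaginyl-tRNA synthetase of the cytosol, was the member whose cow means did not overlap between the diets. It ranged from 226 to 617 CPM in control pools (median 359.5) and from 417 to 927 CPM in methionine-rich pools (median 549). Single pools did overlap, since C2.2 and C3.1 exceeded the lowest methionine-rich pool, M8.2. The cow means were 369, 421, 444 and 337 CPM in the control treatment and 784, 557, 525 and 491 CPM in the methionine-rich treatment, with averages of 393 ± 48.8 and 589 ± 132 CPM (SD, n = 4 cows each). The difference was 196 CPM (exact permutation test, p = 0.0286, the smallest possible), and cow means were separated for 2.21% of all loci tested, 1.16% in this direction and 1.05% in the other. The log2 fold change was 0.60 in the exact test (unadjusted p = 0.0308, FDR = 0.458), and the quasi-likelihood test gave an FDR of 0.323. DESeq2 estimated 0.61 ± 0.18 (SE). Without M5.1, the highest pool, the ratio of the cow means went from 1.499 to 1.408 and the cows were still separated. They were not with all 16 pools or without C2.1, the pool with leukocyte transcripts, in which NARS was at its lowest, since the other pool of cow 2 had 617 CPM.

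WARS, the tryptophanyl-tRNA synthetase of the cytosol and an interferon-inducible gene, had the largest positive log2 fold change of the members, 2.07 (exact test, unadjusted p = 0.00564, FDR = 0.224). It ranged from 1.80 to 14.8 CPM in control pools (median 4.35) and from 4.41 to 96.0 CPM in methionine-rich pools (median 9.85). Pool M8.2, a single embryo, held 45.2% of all WARS counts of the 15 pools, and the other pool of cow 8 had 6.96 CPM. The cow means were 3.08, 4.27, 3.91 and 10.2 CPM in the control and 5.70, 9.85, 23.0 and 51.5 CPM in the methionine-rich treatment, so that control cow 4 exceeded methionine-rich cows 5 and 6. Without M8.2, the ratio of the cow means went from 4.20 to 2.12 (exact permutation p = 0.2, from 0.0857 with all 15 pools), and without cow 8 the log2 fold change was 1.24 (FDR = 0.766). DESeq2 estimated 2.09 ± 0.70 (SE, FDR = 0.228).

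The 7 members of the multisynthetase complex in these data were DARS, IARS, KARS, LARS, MARS, QARS and RARS. None was called, with a smallest FDR of 0.784, and 6 of the 7 had a positive log2 fold change, with a median of 0.31, a count that was 5 without C2.1 and 4 with all 16 pools. KARS took the most counts of all synthetases, between 16.9% and 38.3% of their summed CPM in the 15 pools. It ranged from 449 to 845 CPM in control pools and from 534 to 1122 CPM in methionine-rich pools, and its averages over cows were 617 ± 142 and 776 ± 158 CPM (SD, n = 4 cows each; exact permutation test, p = 0.171). Its log2 fold change of 0.29 was 0.12 without cow 8. DARS, the aspartyl-tRNA synthetase, ranged from 12 to 27.4 CPM in control and from 13.8 to 49.0 CPM in methionine-rich pools. Its cow means were 18.8 ± 5.65 and 27.0 ± 5.40 CPM (SD, n = 4 cows each; exact permutation test, p = 0.0571), with a log2 fold change of 0.51 (FDR = 0.943). For QARS, the glutaminyl-tRNA synthetase, the averages over cows were 280 ± 27.3 and 283 ± 31.6 CPM (SD, n = 4 cows each), and the 95% interval of its log2 fold change ran from -0.45 to 0.50. RARS had an interval from -0.14 to 0.77, LARS from -0.90 to 0.85 and IARS from -1.04 to 1.81.

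Of the other cytosolic synthetases, TARS, the threonyl-tRNA synthetase, ranged from 19.5 to 162 CPM in control pools (median 91.3) and from 30.1 to 317 CPM in methionine-rich pools (median 122). Both pools of cow 6 (317 and 173 CPM) and both of cow 5 (153.5 and 194.6 CPM) were above the median of either diet, and both of cow 8 (50.9 and 30.1 CPM) were below both medians. The log2 fold change was 0.51 (FDR = 0.940), and 0.04 (FDR = 1.0) without cow 6. VARS, the valyl-tRNA synthetase, ranged from 4.45 to 18.6 CPM in control and from 3.65 to 13.3 CPM in methionine-rich pools (log2 fold change -0.13, FDR = 1.0). The remaining 8 (AARS, CARS, FARSA, FARSB, GARS, HARS, SARS and YARS) had log2 fold changes between -0.51 for CARS and 0.08 for AARS. FARSA and FARSB, which encode the subunits of the same enzyme, had log2 fold changes of 0.06 and -0.09.

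Among the mitochondrial synthetases, YARS2, the tyrosyl-tRNA synthetase, had the largest difference in size. It had counts in 8 of the 15 pools: 188 in C3.1, 140 in C4.2, 44 in C1.1, 8 in C2.2 and 1 in C2.1, and 28 in M6.1, 12 in M7.1 and 2 in M5.2. The cow means were 2.90, 0.708, 25.3 and 8.999 CPM in the control and 0.132, 1.91, 0.767 and 0 CPM in the methionine-rich treatment, so that the diets overlapped at control cow 2. The log2 fold change was -3.26 (exact test, unadjusted p = 0.0447, FDR = 0.558; DESeq2 SE 1.71; exact permutation test over cows, p = 0.0857). Pool C3.1 is the sole pool of cow 3 here and held 44.4% of all YARS2 counts, and without it the ratio of the cow means was 0.167 in place of 0.0740. DNM1L, a mitochondrial fission gene that overlaps YARS2 in the RefSeq table, had from 13 to 588 counts in control and from 25 to 128 in methionine-rich pools (log2 fold change -1.25, FDR = 0.610).

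AARS2, the mitochondrial alanyl-tRNA synthetase, ranged from 0.824 to 19.5 CPM in control pools (median 9.42) and from 4.09 to 50.8 CPM in methionine-rich pools (median 16.5). The cow means were 9.68, 14.5, 5.12 and 8.06 CPM in the control and 15.3, 12.2, 16.7 and 33.8 CPM in the methionine-rich treatment, and control cow 2 alone exceeded a methionine-rich cow (exact permutation test, p = 0.0571). The log2 fold change was 1.02 (FDR = 0.794; DESeq2 1.05 ± 0.60, SE), and 0.55 (FDR = 1.0) without cow 8. The pools of a cow differed widely for this gene, with 16.8 and 50.8 CPM in cow 8 and 0.824 and 15.3 CPM in cow 4.

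WARS2, the mitochondrial tryptophanyl-tRNA synthetase, took the most counts of the mitochondrial members. It ranged from 79.0 to 218 CPM in control pools (median 167) and from 56.4 to 259 CPM in methionine-rich pools (median 120). Its cow means were 141, 186, 92.0 and 175 CPM in the control and 254, 76.3, 96.5 and 178 CPM in the methionine-rich treatment. The averages over cows, 149 ± 42.1 and 151 ± 81.5 CPM (SD, n = 4 cows each), differed by less than the spread between cows (exact permutation test, p = 0.914), and the sign of its log2 fold change of -0.09 turned under 8 of 22 alternatives. CARS2, the cysteinyl enzyme, ranged from 4.58 to 12.3 CPM in control and from 1.39 to 18.5 CPM in methionine-rich pools (log2 fold change -0.33, FDR = 1.0). NARS2, the asparaginyl enzyme, ranged from 2.56 to 13.7 and from 1.58 to 10.6 CPM (log2 fold change -0.46, FDR = 1.0), so that the estimates for the asparaginyl-tRNA synthetases of the cytosol and of the mitochondrion had opposite signs, a difference that was not tested. HARS2, the histidyl enzyme, had 0 counts in C1.2, 7 or fewer in M7.1, M8.1 and M8.2, and between 32 and 289 in the other 11 pools. The members FARS2, LARS2, RARS2, SARS2 and TARS2 had log2 fold changes between -0.23 and 0.31.

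The CPM of the 19 cytosolic synthetases summed to 2308 ± 280.0 in the control cows and 2777 ± 423 in the methionine-rich cows (SD, n = 4 cows each). The cow values were 2450, 2629, 2025 and 2130 in the control and 3404, 2560, 2492 and 2653 in the methionine-rich treatment, so that control cow 2 lay above methionine-rich cows 6 and 7. The sum was highest in M5.1 (4101 CPM), followed by C2.2 (3596 CPM), and it was lowest in C2.1 (1662 CPM). Of the 33 members, 8 had their highest value in M5.1, 6 in M8.2 and 5 in C2.2. Without M5.1 the average of the methionine-rich cows was 2603 CPM, and the ratio of the diets was 1.13 in place of 1.20. Without C2.2 the ratio was 1.34. Cow 2, then represented only by C2.1, the pool with leukocyte transcripts, had 1662 CPM. No control cow then reached the lowest methionine-rich cow. In contrast, C2.2, the other pool of cow 2, lay with its 3596 CPM above each methionine-rich cow. How many loci separate without C2.2 was not examined. The 14 mitochondrial synthetases summed to 279 ± 56.0 CPM in the control and 285 ± 84.0 CPM in the methionine-rich cows. Of these, WARS2 alone averaged 149 and 151 CPM. Among the cytosolic members, NARS and KARS differed most, by 196 and 160 CPM, both higher in the methionine-rich cows. Others went the other way, such as SARS by 37.6 CPM.

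Mitochondrial synthetases took 11.1% ± 2.02 of the summed synthetase CPM in the control cows and 9.27% ± 1.64 in the methionine-rich cows (SD, n = 4 cows each). The values of the cows were 9.14, 12.3, 9.56 and 13.2% against 10.35, 7.16, 8.81 and 10.8%, and those of the pools ranged from 7.71 to 16.0% and from 6.82 to 12.4%, so that the diets overlapped. The difference of -1.79 percentage points was close to the spread between cows of a diet. It kept its sign when each cow was left out in turn, and no test was made of it. KARS and GARS each encode the enzymes of both compartments and are counted as cytosolic here. Without GARS, KARS and QARS in the cytosolic sum, the difference was -3.31 percentage points. As these are sums of counts that are not divided by length, the share does not give the relative number of transcripts. Members with high counts weigh most in it, WARS2 among the mitochondrial and KARS and NARS among the cytosolic ones.

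**Figure D4:**
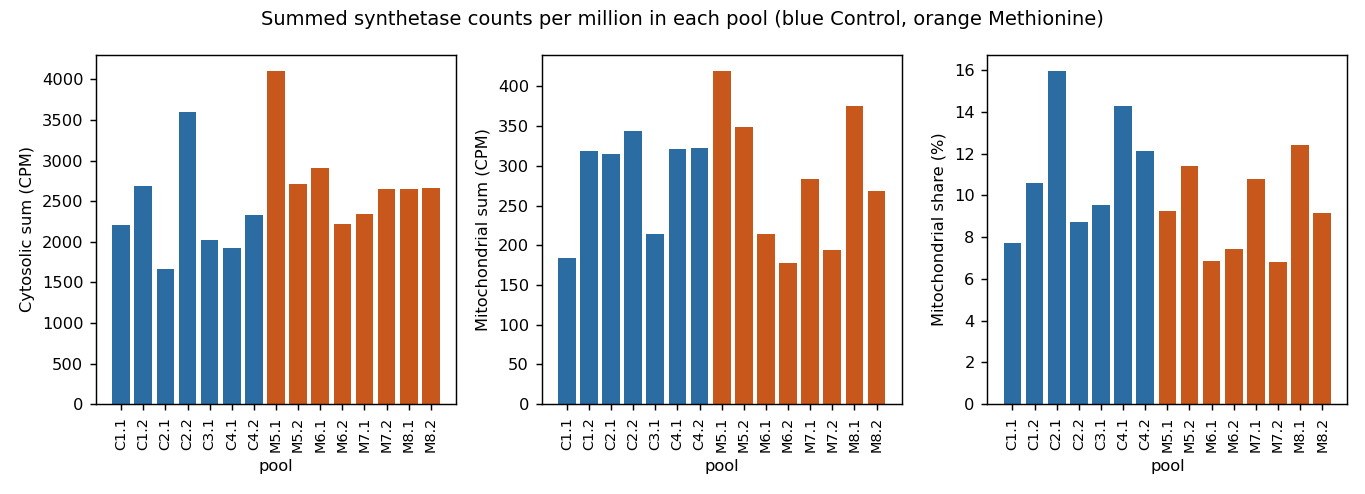
Summed CPM of 19 cytosolic synthetases (left) and of 14 mitochondrial synthetases (middle), and the mitochondrial share of both sums in percent (right), with 1 bar per pool for 7 control (blue) and 8 methionine-rich (orange) pools. The cytosolic sum is highest in M5.1 (4101 CPM) and C2.2 (3596 CPM), and the share is highest in C2.1 (16.0%).

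Of the blastocyst markers, KRT18, a keratin of the trophectoderm, had 4259 ± 713 CPM in the control and 2887 ± 416 CPM in the methionine-rich cows (SD, n = 4 cows each; log2 fold change -0.54, exact test FDR = 0.617), and 9 of the 13 markers tested had a negative log2 fold change. The part of these markers in the values of the synthetases was not tested.

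Genes that work with the synthetases were examined in 3 lists, and none of their genes was called by the exact test or the quasi-likelihood test. The first list, the scaffold of the multisynthetase complex and genes of tRNA handling and delivery, had 15 loci tested, of which 8 had a positive log2 fold change (median 0.06) and 0 had an unadjusted p under 0.05. The scaffold genes had log2 fold changes of -0.10 ± 0.20 for AIMP1, -0.19 ± 0.26 for AIMP2 and 0.15 ± 0.39 for EEF1E1 (DESeq2, SE). AIMP1 ranged from 144 to 246 CPM in control and from 118 to 289.5 CPM in methionine-rich pools. AIMP2 ranged from 333 to 1005 CPM (median 515) and from 351.5 to 657 CPM (median 538), with its highest value in C3.1, which was the lowest pool for EEF1E1. EEF1E1 ranged from 10.8 to 102 CPM (median 58.0) in control and from 34.5 to 85.1 CPM (median 78.5) in methionine-rich pools. For AIMP1, the highest pool was 2.46 times the lowest, against 2.50 times for KARS and 30.4 times for IARS, the lowest and highest ratios among the 7 complex members.

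The second list, mitochondrial translation initiation, elongation, release and the amidation of glutamyl-tRNA, had 13 loci tested, of which 8 had a positive log2 fold change (median 0.16) and 0 an unadjusted p under 0.05. MTFMT, which formylates the methionyl-tRNA that MARS2 makes for the start of mitochondrial translation, ranged from 9.43 to 72.4 CPM in control pools and from 9.59 to 91.3 CPM in methionine-rich pools, with medians of 19.4 and 41.2. Its averages over cows were 22.7 ± 14.3 and 44.5 ± 24.5 CPM (SD, n = 4 cows each; exact permutation test, p = 0.171), with a log2 fold change of 0.87 (FDR = 0.811). With all 16 pools 1 gene of the lists was called, GFM2, a ribosome recycling factor of the mitochondrion (log2 fold change -3.91, FDR = 0.0741), which had 173 CPM in C3.2 against at most 10.85 in the other control pools.

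The third list, genes of the amino acid response, had 18 loci tested, of which 9 had a positive and 9 a negative log2 fold change (median -0.04), and 1 had an unadjusted p under 0.05. That gene, SLC7A5, a transporter of large neutral amino acids including methionine, had a log2 fold change of -0.94 (exact test, unadjusted p = 0.0376, FDR = 0.506). It had 234.6 CPM in C1.1 against at most 72.6 in methionine-rich pools, but its medians were 49.8 CPM in control and 42.7 CPM in methionine-rich pools. The exact permutation test over cow means gave p = 0.429. ATF4 ranged from 227 to 414 CPM in control and from 236 to 741 CPM in methionine-rich pools, with medians of 291.5 and 405 and a log2 fold change of 0.44 ± 0.25 (DESeq2, SE; exact test FDR = 0.845). ASNS, the asparagine synthetase and a target of ATF4, ranged from 4.04 to 21.9 CPM and from 7.13 to 41.0 CPM, with medians of 9.51 and 13.5 and a log2 fold change of 0.65 (FDR = 0.940).

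In pool C3.2, which entered the values above only where it or all 16 pools are named, the synthetases had a different profile. KARS had 4689 CPM there, against at most 1122 in the other 15 pools, and took 73.9% of the summed synthetase CPM. MARS, NARS, QARS, VARS, CARS2 and HARS2 were also above each of the other control pools. In contrast, 15 members were below each of the other 15 pools and 9 had 0 counts, among them WARS, FARSA, HARS, AARS2 and MARS2. WARS2 had 1.15 CPM in C3.2, against at least 56.4 CPM elsewhere. With this pool included, the log2 fold changes of KARS, MARS and VARS were -1.01, -0.25 and -1.10, against 0.29, 0.72 and -0.13 without it.

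**Figure D5:**
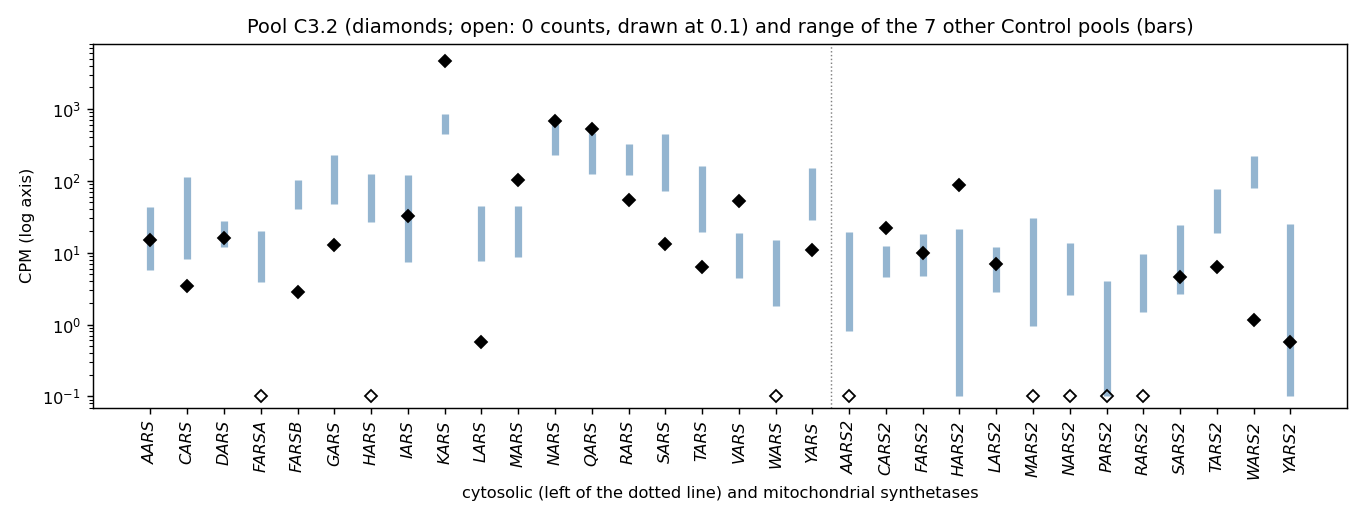
CPM (log axis) of 32 synthetases in pool C3.2 (diamonds, open at 0.1 for 0 counts) and the range from the lowest to the highest of the 7 other control pools (bars, with 0 drawn at 0.1), for cytosolic members left and mitochondrial members right of the dotted line. KARS lies far above its bar at 4689 CPM, and 8 of the members drawn have 0 counts in C3.2.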

How the data were processed

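The authors amplified the RNA of 16 blastocyst pools linearly, in several rounds, before sequencing. Among the pools for which the study gives a quality number of the amplified RNA, it was lowest in M7.1, M5.2 and M5.1. The RNA concentration was lowest in M8.2. The part of RNA quality and amount in the differences between the diets was not tested. Alignment was to bosTau7 with TopHat2 2.0.4, transcript assembly used Cufflinks 2.0.2, and htseq-count gave the reads of each gene. The deposited counts are whole numbers without normalization, in 22552 entries for 22358 loci per pool, since 182 loci are listed under several names and were entered here once. Amplification from the poly(A) tail favours transcript ends, so counts depend on more than length. The synthetases and gene lists were chosen with earlier results of these data known.

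The 7 control and 8 methionine-rich pools were compared, without C3.2, over 10519 loci with a summed CPM of at least 15. Counts were scaled by TMM (edgeR 4.0.16, R 4.3.3) and tested by the exact test with tagwise dispersions, and p-values were adjusted over all loci by the Benjamini-Hochberg method (FDR). The values of 1 synthetase are not reported here, though counts and sums over members include it. The common dispersion was 1.142. The pools of a cow enter as separate samples in this test, as in the study, so its p-values are too small if they resemble each other (voom correlation 0.0351). Cow means were therefore also compared by exact permutation over 70 assignments. The edgeR quasi-likelihood test, limma 3.58.1 and DESeq2 1.42.0, which gave the standard errors and replaced no count of a synthetase, were alternatives. The code was tested on simulated data. Depth set a floor of 3 counts, which covers counting error only.

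Pool values are given for MARS, MARS2, WARS, the 5 smallest exact-test p-values and the most and fewest counts in each compartment, and separated cow means; of the lists, for MTFMT, ATF4, ASNS and the scaffold genes. HARS2, CARS, IARS, SLC7A5, GFM2, KRT18 and LAPTM5 were singled out after their values were seen. Samples with the same pool number did not deviate together (mean correlation -0.0076 in 28 pairs, against 0.0076 in 28 pairs of different number). No pair of pools held the same library. Lane and sire of each pool are not given in the labels. Of 33 members, 10 overlap another protein-coding gene in the RefSeq table of ARS-UCD2.0, whose build differs, so that it was used only to find neighbouring genes and none of its coordinates is given.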

Additional observations from a re-analysis of the deposited data

Results flagged for a closer look

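In 10 of the 28 groups of pools examined for the synthetases described by pool, 1 pool stood far from the others by Dixon's test. Its chance rate of about 1 in 20 assumes normally distributed values. Some of these groups hold mostly 0 counts, so whether 10 groups exceed chance cannot be told. NARS had 926.7 CPM in M5.1 and MARS had 79.92 CPM in the same pool. MARS also had 44.88 CPM in C2.2. WARS had 96.01 CPM in M8.2 and 14.84 CPM in C4.1, and CARS2 had 18.5 CPM in M8.2. MARS2 had 30.34 CPM in C4.2, and the other pool of that cow had 10.4 CPM, the next highest control value. YARS2 had 3.815 CPM in M6.1, where 5 of the 8 methionine-rich pools had 0 counts. PARS2 had 4.049 CPM in C1.2 and 0.7917 CPM in M5.2, with 0 counts in most of the other pools. Each of these values was the highest of its diet.

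Pool C3.2, which the comparisons of 15 pools leave out, was above every other control pool for 7 synthetases. The values were 4689 CPM for KARS, 102.6 for MARS, 669.3 for NARS, 526.1 for QARS, 51.57 for VARS, 22.35 for CARS2 and 86.53 for HARS2. In this pool 18 of the 33 synthetases had at least 10 counts, and its total was 1745048.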

How the results depend on the processing

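The exact test gave 0 synthetase calls, and the count was 0 under 23 of 24 alternatives (other tests, scalings, filters, thresholds, pools, and each cow left out), with a smallest member FDR of 0.1176 to 0.9933 where one was fitted. It was 1 (NARS, FDR 0.09658, log2 fold change 0.608) with DESeq2. Over all loci, the exact test called 1.05% and DESeq2 0.685%. The quasi-likelihood test and voom called 0% of all loci, so that neither could call a member. Shares for the other alternatives are not given here. At shares this low, few or no calls among 32 members are close to what all loci show. Related genes gave 0 calls, and 1 with all 16 pools. The median log2 fold change of the members ranged from -0.059 to 0.137. The members with separated cow means numbered 2 (NARS and MARS) on the log2(CPM + 1) scale, where 2.29% of all loci separate. They numbered 0 with all 16 pools (2.28% of all loci) and 0 without C2.1 (2.19%). Without each cow in turn they numbered 1 to 4: 4 without cow 2, 3 without cow 4 and 2 without each of cows 5, 6 and 7. There 3.9% to 5.28% of all loci separate because fewer cows remain. NARS was among the separated members in each of these 8 cases, but this was fixed in advance. Leaving out a cow cannot undo a separation that all 8 cows show. The MARS difference was 0.7142 (p 0.02857, exact permutation) on the log2 scale and 7.113 to 18.37 CPM without each cow. The MARS2 difference was -4.818 CPM without cow 7 and up to 8.085 without the others. The share difference, -1.79 points, was -3.305 without GARS, KARS and QARS, -0.8674 with all 16 pools, and -2.43 to -1.069 without each cow. Members with an unadjusted p under 0.05 numbered 1 to 3. Of all loci, 8.54% passed this threshold in the exact test and 8.64% in the quasi-likelihood test.

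Signs turned, with no call, for KARS (-1.011) and MARS (-0.254) with all 16 pools, for MARS2 with voom (-0.754) and without cow 7 (-2.26, up to 2.582 without the others), for CARS2 (0.096) and TARS (-0.186) with the number of blastocysts as a covariate, for VARS without cow 3 (0.057, down to -0.287 without the others), and for WARS2 with all 16 pools (0.121), without C2.1 (0.031), with pools summed per cow (0.061 in both tests), with the blastocyst covariate (0.165) and without cows 2, 6 and 7 (0.009, 0.149 and 0.05, down to -0.342 without the others). Larger moves of the same sign were those of MARS2 (3.075) with the blastocyst covariate, VARS (-1.098) with all 16 pools, TARS (0.042) without cow 6, and AARS2 (0.546) and KARS (0.115) without cow 8. The causes were not tested. The pool number as a replicate block left 0 calls (smallest FDR 0.5392) and a median of 0.037. Without transcript lengths, the share per length was not run. At this depth 0 counts allow up to 0.533 CPM.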
